A study of Mus musculus with 12 samples.

Results

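The Sox and Pou transcription factor families were examined as 32 protein-coding genes, 18 named Sox and 14 named Pou followed by a number, out of 21951 protein-coding genes in the GENCODE M21 annotation of the mouse genome GRCm38. Sox2 and Pou5f1 were left out by the rule that chose the genes. Every ATAC-seq peak that overlapped the body of one of these genes, or lay within 5 kb of it, was assigned to that gene. This gave 143 of 91354 peaks in the peak set built from BGI data and 152 of 87027 peaks in the set built from Illumina data. The samples were THY1+ sorted mouse embryonic fibroblasts (MEFs) and THY1-/SSEA1+/EPCAM+ sorted embryonic stem cells (mESCs), all on a C57/Bl6 background. MEFs are cultured connective-tissue cells of the embryo, mESCs are the cultured pluripotent cells of the early embryo, and the ages of the embryos are not given in the sources used here. Omni-ATAC-seq, which tags open chromatin with the Tn5 transposase, gave 6 libraries from separate biological samples, MEF 1, 2 and 4 and mESC 1, 3 and 5. Both an Illumina HiSeqX10 and a DNBSEQ-G400 of BGI read every library, so that 12 samples formed 4 groups of 3, and the platforms hold the same libraries rather than independent replicates.

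Sox proteins bind the minor groove of DNA through an HMG box and bend it, and they are sorted by the similarity of that box into groups B1 to H. Pou proteins bind DNA through a POU-specific domain joined to a homeodomain, recognise the octamer motif and related sites, and are sorted into classes I to VI. In pluripotent cells SOX2 and POU5F1 bind composite sites in which a SOX site and an octamer lie side by side, while most other family members are known as regulators of lineages: neural tissue for SoxB and POU class III, cartilage for SOX5, SOX6 and SOX9, endoderm and endothelium for SoxF, and sensory neurons for POU class IV.

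Count columns that carry no platform name were taken as Illumina, because the BGI column of each library is named as such and the labels leave only its HiSeq sample, and every Illumina value rests on this. The reads counted in peaks numbered 15860985 to 21662775 per BGI sample and 15996202 to 21441767 per Illumina sample. Levels are given as CPM, the count per 1000000 of these reads, and since every peak of the 32 genes was 502 bp wide, CPM values of single peaks are levels per equal length. The labelled cell types carried their markers. On BGI, 8 of 8 mESC marker genes were more accessible in mESCs, and 8 of 9 MEF marker genes less so, with Fn1 not past the threshold (log2 fold change -0.08, edgeR adjusted p = 0.330). The promoter peaks of the 8 mESC markers summed to 17.6 to 21.6 CPM in MEF samples and 226 to 268 CPM in mESC samples. Of 4 macrophage markers, Ptprc (-2.35) and Csf1r (-2.60) were less accessible in mESCs, Cd68 (0.91) was more accessible and Adgre1 had no peak, and the list's 2 promoter peaks summed to 24.4 to 28.5 CPM in MEFs and at least 50.7 CPM in every mESC sample. The 4 neural promoter peaks summed to 66.7 to 74.7 CPM in MEFs and 82.5 to 91.8 CPM in mESCs, where Pax6 was the marker past the threshold at the gene level (1.55). On Illumina the neural sums overlapped, at 82.7 to 92.4 CPM in MEFs and 85.4 to 90.7 CPM in mESCs, Pax6 (1.46) and Map2 (0.44) passed at the gene level, and the Pax6 promoter peak was lower (-0.45) where that on BGI was higher (1.38). The 2 endothelial promoter peaks summed to 19.6 to 22.3 CPM and 20.8 to 24.7 CPM, and at the gene level Cdh5 (-1.01) and Kdr (-0.93) were lower, Tek (0.65) was higher and Tie1 had no peak. The part of such other cells in the values below was not tested.

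The first comparison asked which of these genes lay in chromatin that differed between mESCs and MEFs, with the counts of all peaks of a gene summed. On BGI 31 of the 32 genes had a peak, and 19 were more accessible in mESCs and 8 less accessible, while 4 did not pass the threshold (edgeR, adjusted p under 0.05). Over all 17179 protein-coding genes tested, 37.9% were called higher and 38.1% lower. The median log2 fold change of mESC over MEF was 0.50 over the 31 genes and -0.01 over all genes tested. On Illumina 30 genes had a peak, of which 18 were higher and 7 lower, against 37.7% and 38.5% of 17135 genes, and the median was 0.72 over the 30 genes and -0.01 over all. With a log2 fold change of at least 1 also required, 13 genes were higher and 2 lower on each platform, against 12.5% and 9.14% of all genes on BGI and 12.3% and 8.37% on Illumina. Within the families, 11 of 18 Sox genes and 8 of 13 Pou genes were higher on BGI, and 5 and 3 were lower. A larger share of open cells and a more open site in each cell cannot be told apart in these bulk samples.

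**Figure D1:**
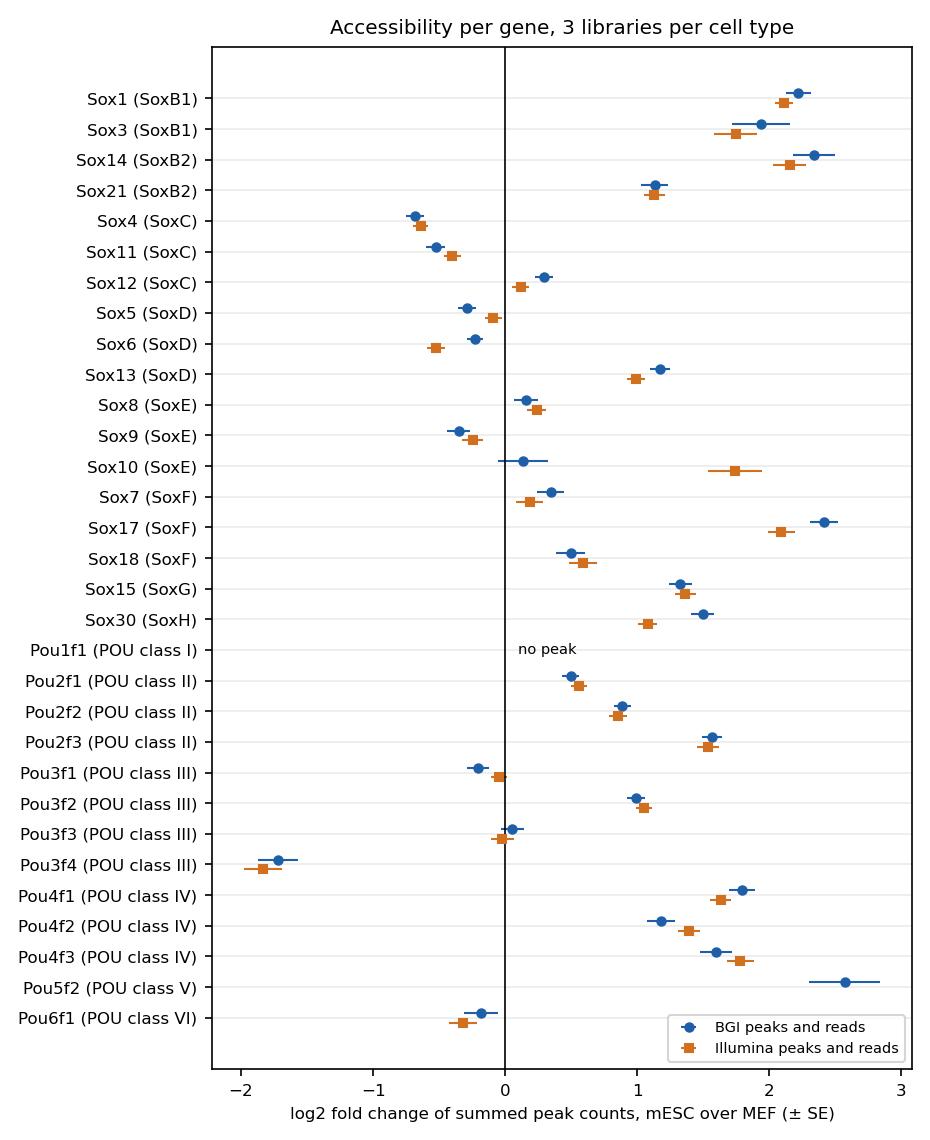
Log2 fold change (x axis, mESC over MEF) of the counts summed over all peaks of a gene (y axis, with its group or class), for BGI (circles) and Illumina (squares). Bars are 1 SE from the edgeR fit of 3 libraries per cell type. Sox1, Sox3, Sox14, Sox17 and the POU class IV genes sit to the right and Pou3f4 to the left. Sox10 is far apart (0.14 and 1.74), where the sums of the platforms rest on different peaks.

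Single peaks leaned the same way. On BGI 82 of the 143 peaks were more accessible in mESCs and 34 less, while 27 were not called, where 40.9% of all peaks were called higher and 43.2% lower. On Illumina 89 of 152 were higher and 33 lower, against 42.1% and 42.4% of all peaks. With a log2 fold change of at least 1 also required, 62 were higher and 21 lower on BGI, against 33.0% and 30.1% of all peaks, and 67 and 16 on Illumina, against 33.6% and 28.2%. The median log2 fold change was 0.62 over the 143 BGI peaks and -0.08 over all BGI peaks. With the authors' down-sampled depths used as library sizes, the median of all BGI peaks moved to 0.06, and over Illumina the median of all peaks moved from -0.03 to 0.09, so that a change near 0 is relative to this shift. On BGI 13 genes held peaks called in both directions, among them Sox4, Sox5, Sox6, Sox9, Sox10, Sox30, Pou2f1, Pou2f3 and Pou3f1. A further 15 genes had calls in the mESC direction alone, and Sox11, Pou3f4 and Pou6f1 had calls in the MEF direction alone. The same tally was not made over all genes, so these counts cannot be read as a trait of the families.

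Where a peak lay went with how far it changed. The 61 promoter peaks, no farther than 1 kb from a transcription start site (TSS) annotated for their own gene, had a median absolute log2 fold change of 0.62, and 8 of them exceeded 2 in size. The 38 intronic peaks had a median of 3.58, and 32 exceeded 2. Promoter peaks of all genes had a median of 0.61 and all other peaks 2.56, so the division holds for the whole table. Of the 38 intronic peaks 21 were higher and 16 lower in mESCs, and 12 of the 16 lower ones lay in Sox5 and Sox6. Of the 17 peaks in the flank downstream of a gene 16 were higher, as were 11 of 15 exonic peaks and 6 of 12 in the flank upstream. Of all 61552 BGI peaks farther than 1 kb from the TSS of any annotated gene, coding or not, 45.5% were higher and 44.3% lower. The median GC content was 64.3% in the promoter peaks and 47.5% in the intronic peaks. At the edge of the 5 kb reach, the last BGI peaks inside were those of Pou3f2 (4881 bp from the gene, log2 fold change 0.56) and Pou2f2 (4930 bp, 2.57), and the first outside were those of Sox14 (5080 bp, -0.16) and Pou3f2 (5399 bp, 0.32). On Illumina the last inside were those of Sox4 (4553 bp, -1.06) and Pou3f2 (4901 bp, 0.59), and the first outside those of Sox30 (5378 bp, -4.63) and Pou3f2 (5412 bp, 0.25).

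**Figure D2:**
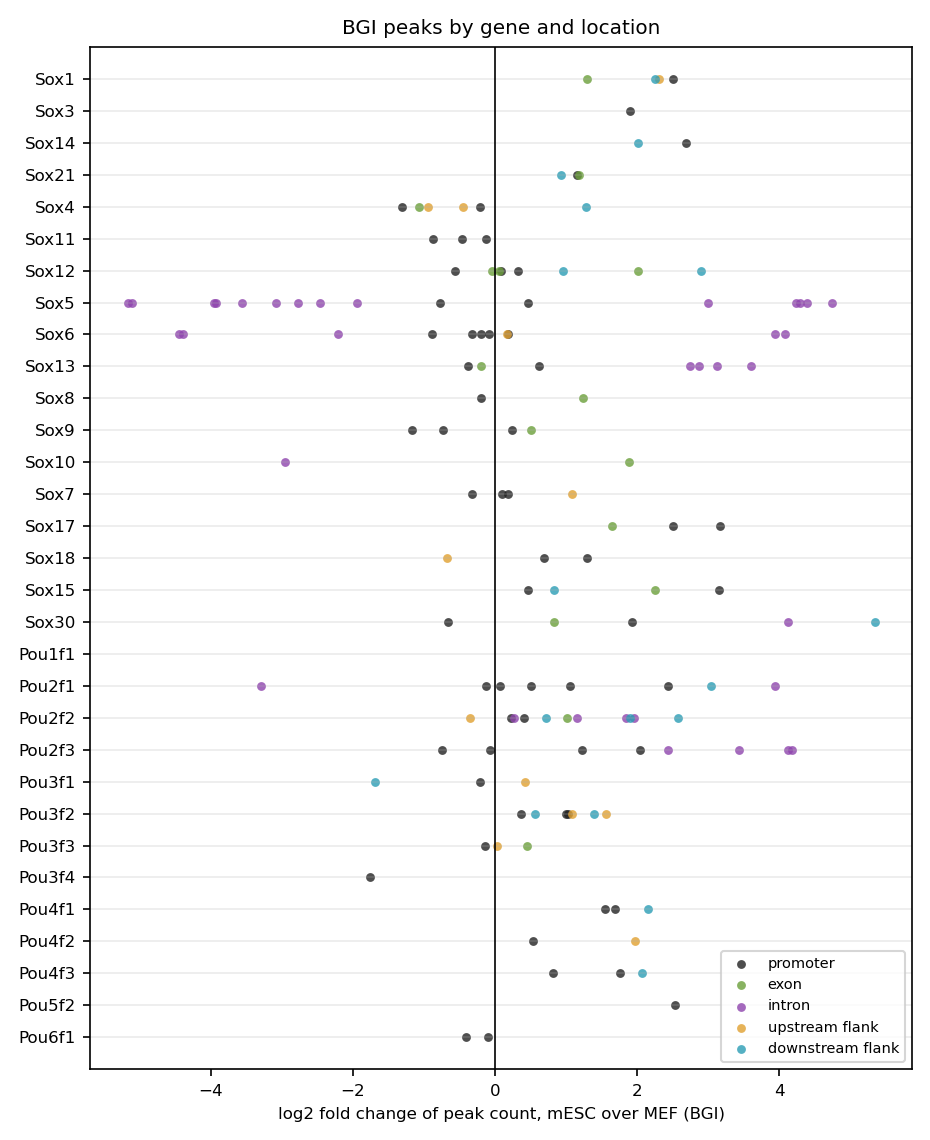
Log2 fold change (x axis, mESC over MEF, BGI) of single peaks by gene (y axis), coloured by location. Promoter peaks stay mostly near 0, whereas intronic peaks of Sox5 and Sox6 reach to the left and those of Sox5, Sox6, Sox13, Sox30 and POU class II genes to the right.

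The motifs that these proteins bind were counted on both strands of the reference sequence under each peak. The octamer was searched as ATGCAAAT, the SOX site as ACAATG or ACAAAG, and the composite as TTGT, any base, ATG, any 2 bases and AAT, so that a composite can contain the octamer and overlap a SOX site. On BGI 8 of 143 peaks (5.59%) held an octamer, against 3.21% of all peaks with sequence, and all 8 were called higher in mESCs, 1 of the Sox12 promoter peaks with an adjusted p of 0.0417. On Illumina 7 of 152 peaks (4.61%) held one, against 3.19% of all peaks, and 6 were called higher, since the Sox12 peak did not pass (adjusted p = 0.0942). Among all BGI peaks called higher the share was 4.81%, and among those called lower 2.22%. Of all 2932 BGI peaks with an octamer, 1795 were called higher and 876 lower, and of 2776 on Illumina 1719 and 810. A SOX site stood in 52 of the 143 peaks (36.4%) and in 46.4% of all peaks. The composite stood in 1 of the 143 peaks (0.699%) and in 0.322% of all peaks. These are matches of letters and give no information on binding.

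The 6 windows of 160 bases below show where these motifs lay, on the forward strand of GRCm38. The first is the single composite, downstream of Sox30 (chr11:46020347-46020506), with the composite in capitals. The next 4 show octamers in an intron of Pou2f3 (chr9:43200306-43200465), at the Pou2f3 promoter (chr9:43210143-43210302), in an intron of Sox5 (chr6:144361598-144361757) and at the Sox12 promoter (chr2:152398162-152398321), with the octamer or its reverse complement in capitals. The last comes from an intron of Sox6 (chr7:115734390-115734549) that was open in MEFs, with SOX sites in capitals.
Sox30 downstream: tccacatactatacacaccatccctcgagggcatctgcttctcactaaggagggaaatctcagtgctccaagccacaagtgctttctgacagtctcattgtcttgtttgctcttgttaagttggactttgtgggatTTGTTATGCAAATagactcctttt
Pou2f3 intron: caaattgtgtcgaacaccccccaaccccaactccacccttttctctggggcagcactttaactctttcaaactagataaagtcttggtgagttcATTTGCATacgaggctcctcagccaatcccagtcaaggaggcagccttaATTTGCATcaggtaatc
Pou2f3 promoter: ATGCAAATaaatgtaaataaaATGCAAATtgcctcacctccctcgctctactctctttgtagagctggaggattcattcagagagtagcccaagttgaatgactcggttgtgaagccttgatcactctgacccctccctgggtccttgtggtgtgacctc
Sox5 intron: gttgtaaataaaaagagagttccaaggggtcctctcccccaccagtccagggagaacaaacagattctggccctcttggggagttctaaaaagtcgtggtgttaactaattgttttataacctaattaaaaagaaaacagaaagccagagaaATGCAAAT
Sox12 promoter: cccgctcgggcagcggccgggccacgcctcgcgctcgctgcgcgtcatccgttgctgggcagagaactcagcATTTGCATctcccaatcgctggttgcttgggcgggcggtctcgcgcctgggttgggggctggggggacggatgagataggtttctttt
Sox6 intron: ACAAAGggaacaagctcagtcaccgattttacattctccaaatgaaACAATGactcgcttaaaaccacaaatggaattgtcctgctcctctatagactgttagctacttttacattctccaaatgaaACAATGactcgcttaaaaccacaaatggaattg
Both Pou2f3 windows hold the octamer in 2 copies, pointing the same way. The Sox6 window contains an exact repeat of 53 bases whose copies start 81 bases apart, and each copy carries a SOX site.

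The SoxB genes were more accessible in mESCs throughout. Sox1 and Sox3 of group B1 and Sox14 and Sox21 of group B2 are known from neural progenitors, where B1 factors keep cells undifferentiated and B2 factors act against them. All their peaks were called higher, 5 in each group on BGI, and 7 in B1 and 6 in B2 on Illumina. The Sox1 promoter peak (chr8:12395291-12395792) had 3.69, 4.47 and 5.23 CPM in MEFs 1, 2 and 4 and 26.4, 26.9 and 26.2 CPM in mESCs 1, 3 and 5. The groups lay far apart, and the log2 fold change was 2.50 ± 0.15 (SE) with an edgeR adjusted p of 5.15e-11 on BGI, and 2.66 on Illumina. Its other peaks, in both flanks and the exon, lay between 1.30 and 2.31. Sox3 held a single BGI peak, at its promoter, with 1.80, 2.73 and 2.04 CPM in MEFs and 8.89, 8.93 and 7.83 CPM in mESCs (1.90 ± 0.23). The Sox14 promoter rose from 1.42 ± 0.549 CPM in MEFs to 9.61 ± 1.39 CPM in mESCs (SD, n = 3 each), a log2 difference of 2.69 ± 0.28. Sox21 differed least of the 4 at the gene level, with 1.13 ± 0.10 on BGI.

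The SoxC genes divided. Sox4 and Sox11, factors of neural and mesenchymal progenitors, were more accessible in MEFs, at -0.69 ± 0.07 and -0.53 ± 0.07 (SE) on the log2 scale over all their peaks on BGI. At the Sox4 promoter (chr13:28953485-28953986) MEFs had 36.9 ± 1.98 CPM and mESCs 15.6 ± 1.63 CPM (SD, n = 3 each). The highest mESC sample (17.2 CPM) lay below the lowest MEF sample (35.0 CPM) (-1.31 ± 0.11, edgeR adjusted p = 2.86e-09). One Sox4 peak went the other way, 5342 bp downstream of the start of the gene, at 3.65 ± 0.452 CPM in MEFs and 9.27 ± 0.777 CPM in mESCs (1.28). Sox11 had 27.5 ± 0.686 CPM at its promoter in MEFs and 15.7 ± 1.52 CPM in mESCs (-0.88 ± 0.11). Sox12 carried the highest promoter level of all 29 promoter peaks, 54.0 ± 3.75 CPM in MEFs with 57.4 CPM in the highest sample, and 58.8, 62.6 and 58.6 CPM in mESCs. The groups did not overlap, yet this peak did not pass the threshold (0.09, adjusted p = 0.358). The promoter peak with the octamer was a different one and was called higher (0.33), and a further promoter peak was called lower (-0.56). The downstream peaks of Sox12 were called higher, the farther one at 1.47 ± 0.729 CPM in MEFs and 11.4 ± 1.55 CPM in mESCs (2.90 ± 0.28). Summed over its peaks, Sox12 was higher on BGI (0.29, adjusted p = 0.000339), a call lost with a reach of 20 kb (0.10, adjusted p = 0.0614). It did not pass on Illumina (0.12), where it did without MEF 4 (adjusted p = 0.0133) or mESC 1 (0.0319), with the down-sampled depths (0.00628) and with the BGI columns (0.00302).

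Sox5, a SoxD factor that acts with SOX6 and SOX9 in cartilage, held the most peaks of all, 16 on BGI along a gene body of 953553 bp. Of its 14 intronic peaks 5 were more accessible in mESCs and 9 in MEFs. The strongest MEF peak (chr6:144074788-144075289), 706939 bp into the gene, had 25.0, 24.6 and 29.2 CPM in MEFs and 0.757, 0.532 and 0.994 CPM in mESCs. It had the most negative log2 fold change of the 143 peaks, -5.17 ± 0.20 on BGI and -5.62 on Illumina. The strongest mESC peak (chr6:144273431-144273932), 508296 bp into the gene, had 0.646, 0.646 and 0.647 CPM in MEFs and 16.1, 21.1 and 17.5 CPM in mESCs (4.74 ± 0.22). The mESC peaks, among them the one whose octamer is printed above, all lay between 210928 and 530966 bp from the start of the gene, with MEF peaks on both sides and 1 among them. The Sox5 promoter barely differed, with 7.52 ± 0.993 CPM in MEFs and 10.8 ± 3.06 CPM in mESCs. Its groups overlapped, since mESC 5 (7.27 CPM) lay below MEF 2 (8.65 CPM), and its BGI call (0.46, adjusted p = 0.0499) was lost in 4 of 6 fits that left out a library, those without MEF 1 (adjusted p = 0.0812), MEF 4 (0.0716), mESC 1 (0.222) and mESC 3 (0.157), and with the Illumina columns (0.0684). Summed over the gene, the value was -0.29 ± 0.07 on BGI, which passed, and -0.09 on Illumina (adjusted p = 0.206), which passed only without MEF 4 (0.0432) among the fits that left out a library, and also without peaks near the TSS of another gene (0.0457) or of Sox5 itself (0.00571).

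Sox6 showed the same mixture on a smaller scale. It is the closest relative of Sox5 among the genes measured. Summed over its peaks, Sox6 was lower in mESCs on BGI (-0.23, adjusted p = 0.00198), a call lost with the down-sampled depths (-0.12, adjusted p = 0.192), and on Illumina (-0.53, adjusted p = 5.31e-07). Of its 11 BGI peaks 5 were intronic, and 3 of these were open in MEFs and 2 in mESCs. The MEF peak whose repeated SOX sites are printed above had 11.0, 10.8 and 6.67 CPM in MEFs and 0.757, 0.355 and 0.311 CPM in mESCs (-4.39 ± 0.35). Its Illumina counterpart gave -4.13. The other intronic MEF peaks had -4.44 and -2.20 on BGI, and -3.95 and -2.33 on Illumina. Both intronic mESC peaks (4.08 and 3.94) had no counterpart in the Illumina set, but Illumina reads counted on these BGI peaks gave 4.196 and 3.979. Of 5 promoter peaks on BGI 1 was called, lower in mESCs (-0.88 ± 0.14), at 16.5, 15.6 and 17.8 CPM in MEFs and 9.71, 9.52 and 9.13 CPM in mESCs. On Illumina 1 Sox6 promoter peak was called lower and 1 higher. Sox13, the last SoxD gene, differed from both in direction: its 4 intronic peaks were all higher in mESCs, by 2.74 to 3.60. The leading one (chr1:133397681-133398182) had 1.62, 2.09 and 1.74 CPM in MEFs and 21.1, 25.0 and 23.2 CPM in mESCs. Its promoter was called slightly lower (-0.38), a call lost without MEF 1, MEF 2, mESC 3 or mESC 5 (adjusted p = 0.0842, 0.0536, 0.0861 and 0.103), and with the down-sampled depths (-0.24, adjusted p = 0.156).

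**Figure D3:**
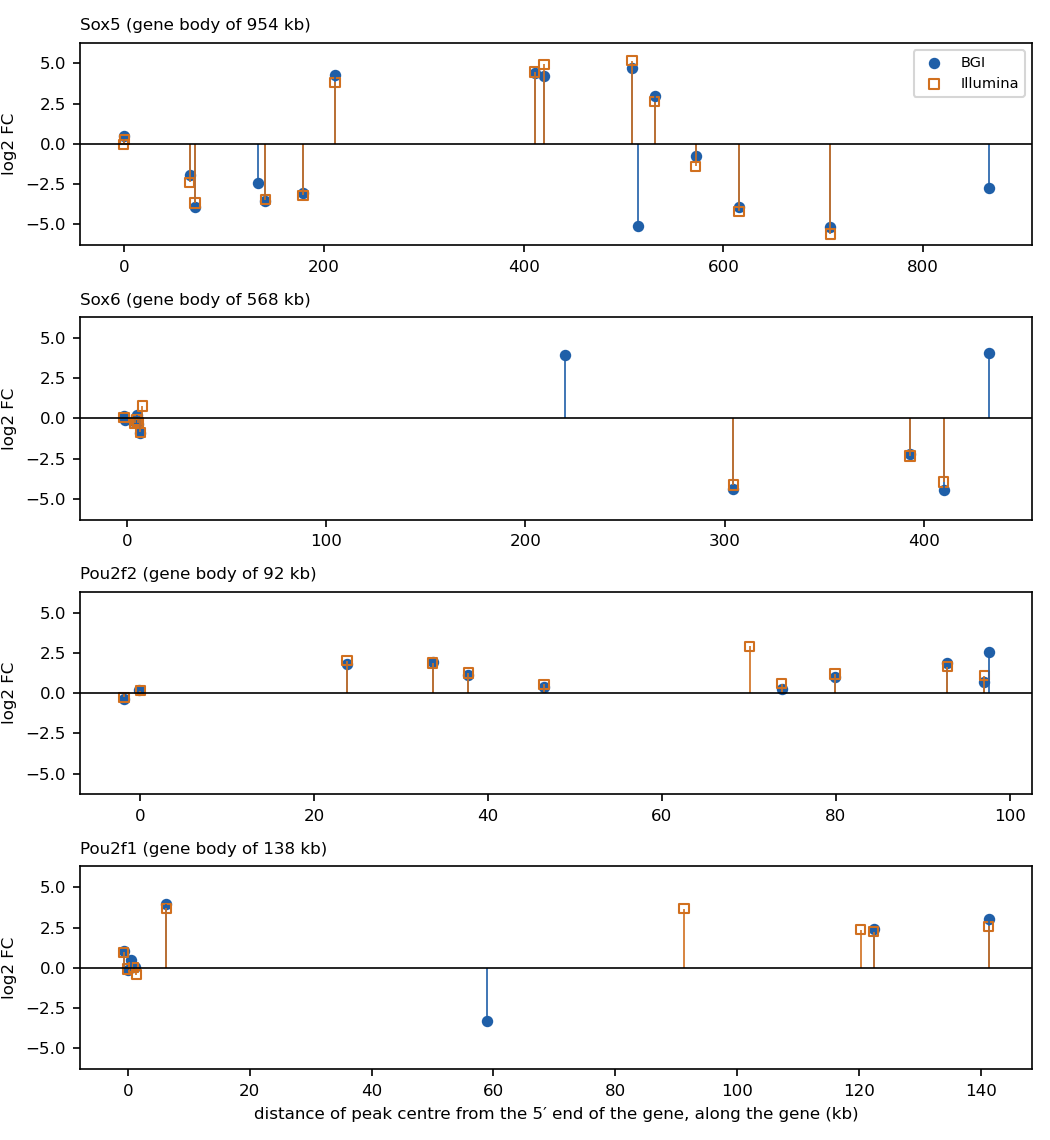
Log2 fold change (y axis, mESC over MEF) of each peak of Sox5, Sox6, Pou2f2 and Pou2f1 against its distance from the 5′ end of the gene in kb (x axis), for BGI (filled circles) and Illumina (open squares). These 4 genes had the most Illumina peaks, and on BGI Pou2f1 tied with Sox12 and Pou2f3. Sox5 and Sox6 have tall stems in both directions inside the gene and stay near 0 at the start, while most stems of Pou2f2 point up, except for a short one in its upstream flank.

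Sox9, a SoxE factor of cartilage and neural crest, was lower at its promoter peak, with 25.1, 27.3 and 26.7 CPM in MEFs and 15.1, 15.1 and 19.6 CPM in mESCs (-0.73 ± 0.12, edgeR adjusted p = 1.90e-05). Its exonic peak was higher (0.51). The gene as a whole stood at -0.35 on BGI and -0.25 on Illumina, and without its promoter peaks at 0.35 on BGI (adjusted p = 0.0526) and 0.18 on Illumina. The Illumina call for the gene was lost without MEF 2 (adjusted p = 0.0596) or mESC 3 (0.0561), with the down-sampled depths (0.107) and with the BGI columns (0.15), and the BGI call with the gene body alone (-0.15, adjusted p = 0.155). Leaving out promoter peaks also rescales every gene, and genes with no such peak moved by a median of -0.20 on BGI and -0.24 on Illumina. Sox8, known from glia and testis, was not called on BGI (0.15, adjusted p = 0.131) and was higher on Illumina (0.24, adjusted p = 0.00534). On BGI it passed with the down-sampled depths (0.26, adjusted p = 0.0285), with the Illumina columns (0.19, adjusted p = 0.0389) and without its promoter peaks (1.07, adjusted p = 0.000112). With a reach of 20 kb Sox8 was called in the opposite direction, lower in mESCs, on BGI (-0.66, adjusted p = 4.67e-09) and on Illumina (-0.49, adjusted p = 1.14e-07). Sox10, a factor of neural crest, glia and melanocytes, had no promoter peak on either platform. It held an intronic BGI peak at 5.95 ± 0.715 CPM in MEFs and 0.801 ± 0.142 CPM in mESCs (-2.96) and an exonic one at 2.12 ± 0.633 and 8.28 ± 1.61 CPM (1.88). The BGI sum of the pair was not called (0.14, adjusted p = 0.514) and was -0.0058 without MEF 4, whereas on Illumina the exonic peak was the only one listed (1.74, adjusted p = 2.17e-07). Illumina reads counted on both BGI peaks gave -2.26 in the intron and 1.73 in the exon.

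Among the SoxF genes Sox17 stood out. SOX17 is known as a factor of endoderm, and with SOX7 and SOX18 it acts in blood vessels. Its promoter peak (chr1:4492786-4493287), near an internal TSS, had 2.95, 2.98 and 3.48 CPM in MEFs and 17.8, 18.9 and 19.0 CPM in mESCs. The mESC samples were clear of the MEF samples, with a log2 fold change of 2.50 ± 0.16 on BGI and 2.60 on Illumina. A neighbouring promoter peak gave 3.17 and an exonic peak 1.65. Sox18 was higher at both promoter peaks (0.69 and 1.29) and lower at an upstream peak at -3978 bp (-0.67), for a sum of 0.50 ± 0.11. The call was lost with a reach of 20 kb on both platforms (0.11 on BGI, adjusted p = 0.166, and 0.094 on Illumina, adjusted p = 0.213). Without its promoter peaks the gene was called lower, at -0.83 on BGI (adjusted p = 0.000755) and -0.65 on Illumina (adjusted p = 0.00614). Sox7 was not called at any of 3 promoter peaks on BGI, while its upstream peak was higher (1.09). On Illumina the peak matching the strongest of them (-0.32 on BGI) was called lower, with 11.5, 10.5 and 12.1 CPM in MEFs and 6.70 to 9.38 CPM in mESCs (-0.60 ± 0.17, adjusted p = 0.00330). The sum was called on BGI (0.35, adjusted p = 0.00414) and not on Illumina (0.19, adjusted p = 0.102), where it passed without mESC 5 (0.0314), with the down-sampled depths (0.0188), with the BGI columns (0.00217) and without its promoter peaks (6.31e-05). The BGI call was lost with the Illumina columns (0.18, adjusted p = 0.0984) and with a reach of 20 kb (-0.075, adjusted p = 0.463). With peaks of the gene body alone Sox7 was not called on BGI (-0.24, adjusted p = 0.22) and was lower on Illumina (-0.54, adjusted p = 0.00397).

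Sox15 and Sox30, the sole members of groups G and H, were both more accessible in mESCs. Sox15 is expressed in pluripotent cells and myoblasts, and Sox30 acts in male germ cells. At Sox15 the peak at -373 bp from the start (chr11:69654691-69655192) had 2.49, 1.99 and 2.59 CPM in MEFs and 24.3, 19.3 and 22.1 CPM in mESCs (3.14 ± 0.17). The stronger promoter peak just inside the gene differed far less (0.47), and its other 2 peaks overlapped the neighbouring gene Mpdu1. At Sox30 the peak with the composite (chr11:46020176-46020677), 40116 bp from the start in the downstream flank, had 0.554, 0.149 and 0.498 CPM in MEFs and 17.8, 19.9 and 14.3 CPM in mESCs. This was the most positive log2 fold change of the 143 peaks, 5.34 ± 0.29 on BGI and 5.53 on Illumina. The peak also held 4 SOX sites. An intronic Sox30 peak followed at 4.12. The Sox30 promoter peak had 8.40, 6.46 and 7.27 CPM in MEFs and 27.1, 35.8 and 24.9 CPM in mESCs (1.92 ± 0.16), while a peak 442 bp inside the gene was lower in mESCs (-0.67).

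The POU class II genes, which encode the octamer proteins OCT1 (Pou2f1), OCT2 (Pou2f2) and OCT11 (Pou2f3), were all more accessible in mESCs as sums. Of their 27 BGI peaks 19 were higher and 2 lower. Pou2f3, known from epidermis and tuft cells, had the largest value (1.56 ± 0.07), and 4 of the 8 peaks with an octamer were its own. Its leading peak (chr9:43132262-43132763), in an intron, had 1.05 ± 0.471 CPM in MEFs and 19.8 ± 2.42 CPM in mESCs, whose lowest sample had 17.2 CPM against 1.49 CPM in the highest MEF sample (4.18 ± 0.24, and 5.01 on Illumina). At its promoter with 2 octamers MEFs had 7.75, 6.91 and 5.43 CPM and mESCs 15.3, 19.0 and 14.9 CPM (1.22 ± 0.17). Pou2f2, a factor of B cells, had 11 peaks, of which 8 were higher and none lower on BGI. Its promoter did not pass the threshold on BGI (0.23, edgeR adjusted p = 0.0798), but did with DESeq2 (adjusted p = 0.0204), RLE size factors (0.0342), the down-sampled depths (0.0135) or the Illumina columns (0.0221), and without MEF 4 (0.0287) or mESC 5 (0.0393). Its intronic peaks at 23794 and 33639 bp had 1.84 and 1.95, and 2 downstream peaks overlapped Zfp574. Pou2f1, which is expressed broadly, had 26.3 ± 1.42 CPM in MEFs and 25.1 ± 3.30 CPM in mESCs at its promoter peak (-0.13, adjusted p = 0.285). Its intronic peak 6307 bp from the start went from 0.374 ± 0.0877 to 6.08 ± 0.837 CPM (3.94 ± 0.34), and another intronic peak was open in MEFs (-3.30).

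The POU class III genes, neural factors with single-exon genes, did not share a direction. Pou3f4 had 1 peak, at its promoter (chrX:110814048-110814549), with 19.2, 21.8 and 18.4 CPM in MEFs and 5.61, 7.51 and 5.22 CPM in mESCs. This was the largest fall of any promoter peak named here, -1.76 ± 0.16 on BGI and -1.87 on Illumina. Pou3f2 went up, with 12.2, 11.7 and 9.21 CPM in MEFs and 21.2, 24.5 and 23.3 CPM in mESCs at its promoter (0.99 ± 0.14) and 6 of 7 peaks higher. Summed over its peaks, Pou3f3 was not called on either platform (0.05 and -0.02). Its promoter peak was not called on BGI (-0.15, adjusted p = 0.234) and was lower with the Illumina columns (-0.30, adjusted p = 0.0223) and in the matching Illumina peak (-0.31, adjusted p = 0.0218). Pou3f1, also known as OCT6, had 34.5 ± 1.81 CPM in MEFs and 31.1 ± 3.40 CPM in mESCs at its promoter on BGI, which was not called with all libraries and was without mESC 3 (-0.28, adjusted p = 0.0132). The matching Illumina peak was called lower (-0.27, adjusted p = 0.0109). Its gene call on BGI (-0.21, adjusted p = 0.0255) came with a downstream peak at -1.68 and was lost on Illumina (-0.05, adjusted p = 0.505) and without MEF 1 (0.0854) or mESC 1 (0.164). It was also lost with the down-sampled depths (-0.10, adjusted p = 0.352), the gene body alone (-0.14, adjusted p = 0.175) and a reach of 20 kb (-0.013, adjusted p = 0.882).

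All 8 BGI peaks of the POU class IV genes were higher in mESCs, as were all 11 on Illumina. These genes encode the BRN3 factors of retinal, inner ear and other sensory neurons. The Pou4f1 promoter peak had 9.46, 7.36 and 7.07 CPM in MEFs and 26.2, 28.3 and 26.0 CPM in mESCs (1.68 ± 0.14). Pou4f2 differed less at its promoter (0.53 ± 0.14) than at an upstream peak at -1640 bp (1.97 ± 0.16). The Pou4f3 promoter peak went from 3.03 ± 0.569 to 10.7 ± 0.537 CPM (1.75 ± 0.20). The 3 sums were 1.79, 1.18 and 1.60 on BGI.

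The remaining Pou genes had few peaks. Pou5f2 (SPRM1), a testis gene related to Pou5f1, had a single BGI peak, at its promoter, with 0.923, 0.944 and 1.05 CPM in MEFs and 5.04, 6.50 and 6.15 CPM in mESCs (2.53 ± 0.29). This peak also lay in the body of Fam172a. No Illumina peak was listed there, but Illumina reads counted on the BGI peak gave 1.05, 0.879 and 1.26 CPM in MEFs and 5.39, 4.51 and 4.31 CPM in mESCs (2.09 ± 0.30). With a reach of 20 kb the BGI call for the gene was lost (-0.26, adjusted p = 0.234). A summit with a -log10 p of at least 10 was called at Pou5f2 in 3 of 3 mESC samples on BGI, in 2 of 3 on Illumina and in 0 of 3 MEF samples on either platform. Pou1f1, the pituitary factor PIT1, had no peak in either set. Summits with a -log10 p of at least 10 were nevertheless called within its reach in 2 of 3 MEF and 3 of 3 mESC samples on BGI, and in 3 of 3 and 0 of 3 on Illumina. Pou6f1 did not pass on BGI (-0.19, adjusted p = 0.198) and was lower on Illumina (-0.32, adjusted p = 0.00928), a call lost without mESC 5 (0.0530), with the down-sampled depths (0.0646) and with the BGI columns (0.166). On BGI it passed with the Illumina columns (-0.30, adjusted p = 0.0146) and with a reach of 20 kb (-0.47, adjusted p = 2.25e-07). Its BGI promoter peak (-0.09) was called lower with the Illumina columns (-0.34, adjusted p = 0.0203).

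The strongest promoter peak of each gene was compared across the 29 genes that had one on BGI. Of these 15 were higher and 6 lower in mESCs and 8 were not called. Of the 29802 peaks within 1 kb of a TSS of any annotated gene, coding or not, 31.3% were higher and 41.0% lower. On Illumina 13 of 28 were higher, 10 lower and 5 not called, against 31.6% and 42.4% of 29660 such peaks. Levels in MEFs ran from 0.971 ± 0.0654 CPM at Pou5f2 to 54.0 ± 3.75 CPM at Sox12, and in mESCs from 5.90 ± 0.762 CPM at Pou5f2 to a highest sample of 62.6 CPM at Sox12. Lower in mESCs on BGI were Sox4, Sox6, Sox9, Sox11, Sox13 and Pou3f4. The genes without a call on BGI, Sox7, Sox8, Sox12, Pou2f1, Pou2f2, Pou3f1, Pou3f3 and Pou6f1, had a mean of at least 6.84 CPM in both cell types.

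**Figure D4:**
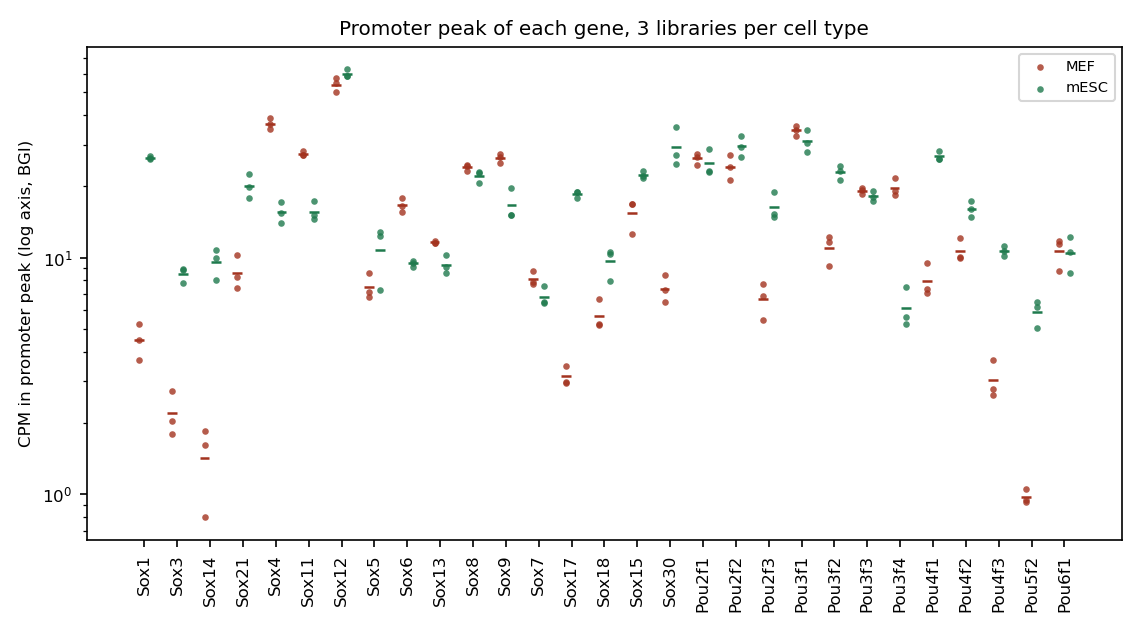
CPM on BGI (y axis, log scale) in the promoter peak of each of 29 genes (x axis) in 3 MEF and 3 mESC libraries, with points for libraries and lines for means. Sox1, Sox3, Sox14, Sox17, Sox30 and Pou5f2 show a wide gap with mESCs above, Pou3f4 and Sox4 a gap with MEFs above, and Sox12, Pou2f1 and Pou3f3 little difference on this platform.

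The platforms were then set side by side, since the study asked what the sequencer changes. Of the 143 BGI peaks 122 overlapped an Illumina peak of the same gene by at least 50%, and 92 of these were called on both platforms, with 0 in opposite directions. A further 6 were called on BGI alone and 6 on Illumina alone. The log2 fold changes of matched peaks differed by a median of 0.15 and at most by 0.83. Whether the difference between cell types itself differed between platforms was tested on all 12 samples. Without pairing, edgeR called 0 of 91354 peaks (0.00%), with 2386 (2.61%) at an unadjusted p under 0.05, of which 5 were among the 143 peaks. DESeq2 also called 0, with 1388 at an unadjusted p under 0.05. With library number as a replicate block, since the same libraries were read on both platforms, 353 peaks (0.386%) were called, and 12094 (13.2%) had an unadjusted p under 0.05, with 23 of the 143 among them. At these genes 1 of 143 was called, the Sox30 promoter peak, where the log2 difference of mESC over MEF changed by -0.50 ± 0.12 from BGI to Illumina (edgeR adjusted p = 0.0392). On the Illumina peak set with the block, 584 peaks (0.671%) were called, and again 1 at these genes, the same promoter (-0.51, adjusted p = 0.0261). In blocked fits without 1 library, chosen after seeing the data, this call was lost in 6 of 6 on the BGI set, with adjusted p from 0.055 (without mESC 1) to 0.485 (without mESC 3), and in 4 of 6 on the Illumina set, where it held without MEF 1 (0.0218) or mESC 1 (0.0325).

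**Figure D5:**
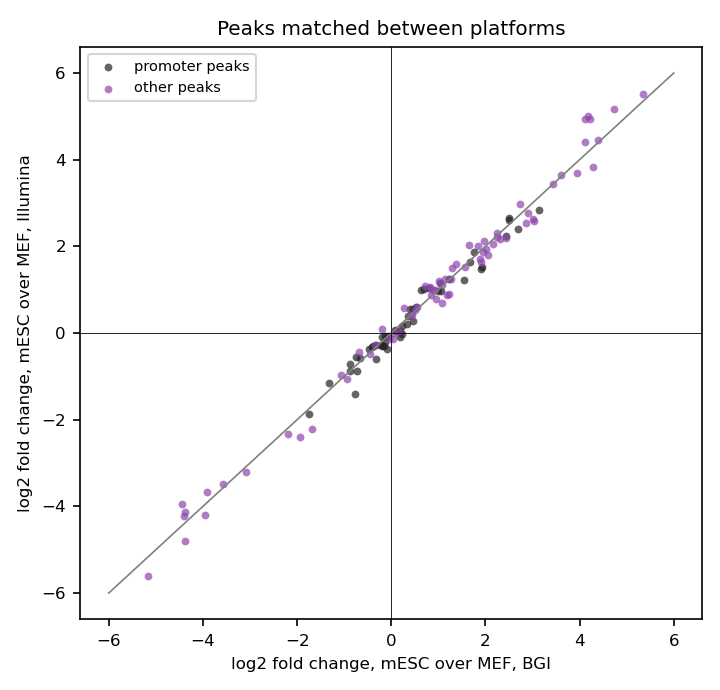
Log2 fold change of mESC over MEF on Illumina (y axis) against BGI (x axis) for the 122 matched peaks, split into promoter peaks and others, with the line of equality. Points follow the line, and the largest distance from it in log2 fold change is 0.83. Both axes rest on the same 6 libraries.

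Genes that these factors are known to control were counted at the gene level on BGI, in 5 lists of 8. Of the targets shared by SoxB1 factors and POU5F1, 6 were higher in mESCs and 0 lower, with a median of 2.19, led by Zfp42 (4.86), Spp1 (3.24) and Fgf4 (3.20). This list shares Nanog and Zfp42 with the mESC markers above, and Pou5f1 was not among the genes examined. By promoter peak 5 of its genes were higher and 2 lower (Fbxo15 and Lefty1, both -0.39). Of the cartilage targets of SOX9, SOX5 and SOX6, 2 were higher (Acan, 0.42, and Col2a1, 0.14), 1 was lower (Matn3, -0.60) and the median was -0.07. On Illumina Col2a1 was not called (0.02). Of the glial and melanocyte targets of SOX10, 2 were higher (Dct, 2.31, and Erbb3, 0.22) and 2 lower (Ednrb, -1.09, and Mitf, -0.30), with a median of 0.03. On Illumina Mitf (-0.02) was not called, Dct had no peak and Ret, not called on BGI (0.19), was higher (0.36, adjusted p = 0.00251). Of the endothelial SoxF targets 4 were higher, led by Cldn5 (1.41), and 3 lower, led by Vcam1 (-3.30), with a median of 0.25. Of the targets of POU1F1 and POU class IV factors 2 were higher, Nefh (1.18) and Isl1 (0.62), and 3 lower, led by Bcl2 (-1.19), with a median of -0.10. On Illumina Gh, not called on BGI (0.34), was also higher (0.64, adjusted p = 0.00178). The shares over all genes given above, 37.9% higher and 38.1% lower, are the background for these counts.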

How the data were processed

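Omni-ATAC-seq libraries of 3 MEF and 3 mESC samples were analysed, each read on 2 platforms. For the deposited count tables the authors trimmed reads with Cutadapt, aligned them to GRCm38 (mm10) with Bowtie2, removed duplicates and mitochondrial reads, down-sampled to a common depth within each cell type, called peaks per sample with MACS2, merged fixed-width peaks per platform and counted reads of each sample in them. The peaks therefore come from the samples that are compared. The peak files the authors deposited per sample hold MACS2 summits with a −log10 p, used here only where a gene lacked a listed peak.

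The genes, target lists, marker lists and tests were chosen with earlier results of these data known. Peaks were assigned to a gene within 5 kb of its GENCODE M21 body, and the annotation and sequence are those of GRCm38. The raw counts were fitted over all peaks, or over all genes after summing peaks, with edgeR 4.0.16 in R 4.3.3 (TMM normalisation, filterByExpr, quasi-likelihood test, two-sided, Benjamini-Hochberg adjusted p under 0.05), separately per platform with 3 against 3 libraries. The difference between platforms was the interaction in a fit of all 12 samples. Deviations from the group means correlated between platforms at r = 0.363 to 0.575 for the same library and at -0.393 to -0.012 for others, and both platforms read the same libraries, so library number was also fitted as a block. Alternatives were DESeq2 1.42.0, other scaling, filters, reaches and promoter windows, columns of the other platform, and leaving out each library, which for the blocked interaction was added after seeing the data. On simulated counts with 200 features changed, the BGI peak fit called 171, the BGI gene fit 197 and the interaction fit 44 of them. The rule named each gene's promoter peak with the highest mean count on BGI, and the 12 peaks with the largest change in each direction on BGI that were called with the same sign in a matched Illumina peak. Other peaks were named after their values were seen, to complete the account of a gene. Of each target list, called genes among the 3 largest changes in each direction could be named. The values of 1 gene are not reported here, though it stays in the counts over all genes of the families. P-values of the fits per platform set a difference against the spread between libraries of a cell type. The interaction without the block counts both readings of a library as separate samples. With the block, its p-values rest on the spread left between readings of the same library.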

Additional observations from a re-analysis of the deposited data

Results flagged for a closer look

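The Sox30 promoter was the one site at these genes where the difference between cell types differed between platforms by the test of the interaction with library number as a block. On BGI it had 8.40, 6.46 and 7.27 CPM in MEFs and 27.1, 35.8 and 24.9 CPM in mESCs. The interaction was -0.497 on the log2 scale on the BGI peak set (edgeR adjusted p = 0.0392) and -0.5083 on the Illumina peak set (adjusted p = 0.0261), both from the same libraries. In blocked fits without 1 library, chosen after seeing the data, the BGI value ran from -0.6106 to -0.3527 and passed in 0 of 6, and the Illumina value ran from -0.64 to -0.3591 and passed in 2 of 6. Without the block neither passed (adjusted p = 1), and on the BGI set the value ran from -0.6127 without MEF 1 to -0.3495 without mESC 3 and was -0.38 with DESeq2. No cause was tested.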

How the results depend on the processing

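With a log2 fold change of at least 1 also required, 62 peaks were higher and 21 lower on BGI and 67 and 16 on Illumina, and 13 genes were higher and 2 lower on each. A reach of 20 kb gave 114 higher and 58 lower of 213 peaks on BGI and 120 and 53 of 216 on Illumina, and the gene body alone 57 and 28 of 103 on BGI and 58 and 29 of 107 on Illumina. Summed by gene, 20 kb gave 15 higher and 9 lower of 31 on BGI and 16 and 9 of 31 on Illumina, and the gene body alone 17 and 6 of 30 and 18 and 8 of 30. Leaving out 1 library gave 77 to 82 higher and 31 to 34 lower peaks on BGI, and 87 to 92 and 31 to 36 on Illumina. No paired analysis was possible because MEF and mESC libraries share a single number, but for the interaction the replicate block called 1 peak on the BGI set and 1 on the Illumina set, against 0 without it. Blocked fits without 1 library, added after seeing the data, called 0 on the BGI set and 0 to 2 on the Illumina set. The following values changed sign. With a reach of 20 kb, Sox8 had -0.66 and -0.49 (BGI and Illumina, both called lower), Sox7 -0.075 and -0.11, Pou3f3 -0.091 on BGI, Pou5f2 -0.26 on BGI, and Sox12 -0.0047 and Pou3f1 0.051 on Illumina. With the gene body alone, Sox7 had -0.24 and -0.54, and Sox12 -0.028 and Pou3f1 0.050 on Illumina. Without peaks near the gene's own TSS, Sox9 had 0.35 and 0.18, Sox18 -0.83 and -0.65 and Pou3f1 0.057 on Illumina. In that fit Sox10, which had no such peak to lose, had -0.066 on BGI, since scaling factors were recomputed over the peaks left. The 2036 genes on BGI that lost no peak moved by a median of -0.20. With the down-sampled depths taken as library sizes, Sox5 had 0.00083, Pou3f1 0.045 and Pou3f3 0.069 on Illumina, and the promoter peaks of Pou2f1 0.013 and Pou6f1 0.043 on BGI. With the other platform's columns, Pou3f3 had -0.052 and 0.053, and without peaks near the TSS of another gene -0.0064 on BGI. Leaving out 1 library, Sox10 ran from -0.0058 to 0.31 on BGI, Pou3f3 from -0.088 to 0.090 on Illumina and the Pou6f1 promoter peak from -0.22 to 0.059. Other causes were not tested. Of the other values for single genes, 464 on BGI and 441 on Illumina kept their direction and side of the threshold. With 3 libraries per group, changes near 0 are poorly resolved.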
